A study of Mus musculus with 51 samples.

Results

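The tumors described here are sgUba1 T1, T2 and T3, 3 of the 7 Myc-CaP tumors labelled as carrying a guide against Uba1, in a series of 51 bulk RNA-seq libraries. They were chosen by their measured Uba1 RNA, which lay below that of every control tumor, and the other 4 sgUba1 tumors, T4 to T7, were set aside by the same rule. The comparison group was sgNC T1, T2 and T3, 3 Myc-CaP tumors labelled WT that received a nontargeting guide. Myc-CaP is a prostate carcinoma line from an FVB mouse that carries a Myc transgene. Per the methods of the study, a plasmid with Cas9 and the guide was transfected into the cells, which were selected with puromycin, sorted as single cells and expanded into sublines, in which Uba1 was only partly depleted. Sublines were injected under the skin of both flanks of male FVB mice aged 6 to 8 weeks, whose immune system is intact, and the tumors received no other treatment. The labels do not say which guide, subline or mouse a tumor came from, so p-values measure only the spread between the tumors in each fit, described below. Cultured Myc-CaP cells with the same sgUba1 and sgNC labels, given PBS or the cytokine IFN-γ (2 libraries each, 8 in all), were a second set of samples that the rule did not use.

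UBA1 is the E1 enzyme at the head of the ubiquitin pathway. It uses ATP to activate ubiquitin, passes it to an E2 conjugating enzyme, and an E3 ligase then places it on a target protein, which is often sent to the 26S proteasome for degradation. IFN-γ binds its receptor on tumor cells and signals through the kinases JAK1 and JAK2 to the nucleus, where IRF1, antigen presentation genes and chemokines that attract T cells are induced. The question of the experiment was how loss of Uba1 in tumor cells bears on interferon signaling and immune evasion.

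Both guides that the study designed against Uba1 are shown because each could have made these tumors. The guide itself is in lower case, and the capitals mark the adjoining PAM, the bases that Cas9 needs next to its target.
sgUba1 #1: taccaatgtcctcctcccgaAGG
sgUba1 #2: tagccgtggtatcaagctagTGG
Nontargeting control: acgtgtaaggcgaacgcctt
On the GRCm38 genome, sgUba1 #1 matched the minus strand at chrX:20669136-20669155, inside exon 5 of the 26 exons of Uba1. The match of sgUba1 #2 was on the plus strand at chrX:20670263-20670282, inside exon 6, and both sites are in coding sequence. The expected cut sites lay 1141 bases apart. The nontargeting guide had no match in the Uba1 transcript.

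Uba1 (ENSMUSG00000001924.15, chrX:20658326-20683179, plus strand) stood at 197, 202 and 210 CPM (counts scaled to an equal library total) in sgUba1 T1, T2 and T3. In sgNC T1, T2 and T3 it stood at 320, 325 and 337 CPM. The means were 203 ± 6.65 CPM (SD, n = 3) and 327 ± 8.86 CPM (SD, n = 3), so that 62.1% of the control level was left. The log2 fold change was -0.69 (SE 0.08), given as a description with no test because this gene chose the tumors. Just outside the rule, sgUba1 T4 to T7 stood at 373, 361, 368 and 383 CPM, all above the highest control. Uninjected cells with the same labels, which may stem from the same sublines as the tumors, were measured as well. The sgNC cells had 533 and 526 CPM of Uba1 and the sgUba1 cells 295 and 283 CPM, which left 54.6% (log2 fold change -0.87, adjusted p = 3.71e-07, edgeR quasi-likelihood test). With IFN-γ the sgNC cells had 586 and 600 CPM and the sgUba1 cells 269 and 275 CPM, which left 45.8% (adjusted p = 5.07e-08). A lower level of this RNA does not measure UBA1 protein. The 16 tested genes within 2 Mb of Uba1 had a median log2 fold change of 0.03 in the tumors, and 0 of them were called in either fit described next. Rbm10, an RNA-binding protein gene beside Uba1, stood at 80.1, 78.3 and 87.1 CPM in T1 to T3 against 84.2, 79.0 and 94.9 CPM in the controls. Cdk16, a cyclin-dependent kinase gene on the other side, stood at 136, 127 and 140 CPM against 127, 134 and 134 CPM. Both ranges overlapped (these neighbours were named after their values were seen).

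Depth was alike in both groups, at 11548515 to 11835783 counts in sgUba1 T1 to T3 and 10668594 to 12552766 in the controls. Control T2 stood apart. Its correlation with control T1 and T3 was 0.956 and 0.969, against 0.987 between those 2 (log2(CPM + 1) over 16202 genes), whereas T1 to T3 correlated with one another at 0.979 to 0.988. Its Myc level was 398 CPM against 1546 and 1415 CPM in control T1 and T3, its 17 keratin genes summed to 4277 CPM against 1126 and 1541 CPM, and its 40 proliferation genes summed to 1908 CPM against 4041 and 4364 CPM. Marker genes of the labelled epithelial cell type were mixed in T1 to T3. The 17 keratin genes summed to 426 to 742 CPM, and the keratin gene Krt8 stood at 62.4, 145 and 36.9 CPM. Grhl2, an activator of epithelial genes, stood at 44.1, 63.4 and 36.2 CPM. But Epcam did not exceed 0.0795 CPM and Cdh1 (E-cadherin) did not exceed 1.52 CPM. Control values of Epcam and Cdh1 are not given here, so a trait of these tumors and a trait of the line cannot be told apart. (Krt8, Epcam and Cdh1 were named here after their values were seen.)

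Called genes were few in the 6 tumors. Of 15679 genes tested by edgeR, 1 passed an adjusted p of 0.05 (0.00638% of genes tested), and it was lower in T1 to T3. Before adjustment, 2964 genes (18.9%) had a p under 0.05, 1332 higher (8.5%) and 1632 lower (10.4%). Groups that did not overlap were found for 4240 genes (27%), with T1 to T3 higher for 2111 (13.5%) and lower for 2129 (13.6%). When T4 to T7 were added to the same model only to estimate the spread, 859 of 16202 genes passed (5.3%), 335 higher (2.07%) and 524 lower (3.23%). T4 to T7 correlated with one another at 0.987 to 0.991, against 0.956 to 0.987 among the controls. The larger fit pools their spread with that of the 6 tumors, so its adjusted p-values rest partly on tumors outside the comparison. Without control T2, 184 genes passed in the smaller fit (1.14%) and 924 in the larger (5.56%). DESeq2 on the 6 tumors called 992 (6.72%). In what follows, a gene that "rose" or "fell" passed the test with 10 tumors in the model, its adjusted p is from that fit, and its log2 fold change is from the 6 tumors unless stated.

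The gene that passed among the 6 tumors was Vwa3a, a von Willebrand factor A domain gene on chromosome 7. It stood at 0.729, 0.875 and 0.800 CPM in T1 to T3 and at 26.4, 32.6 and 25.9 CPM in the controls (log2 fold change -5.13, SE 0.19, adjusted p = 0.000464 in the 6 tumors). Every one of T1 to T3 was far below every control. The same gap separated the cultured cells, with 13.2 and 15.3 CPM in sgNC and 0.367 and 0.480 CPM in sgUba1 (log2 fold change -5.07). But sgUba1 T4 to T7, whose Uba1 was not low, had only 0.430 to 0.992 CPM. Empty-vector Myc-CaP tumors of another experiment in the series had 0.529 to 0.875 CPM, vehicle-treated tumors 0.333 to 1.13 CPM and untreated cells 0.937 to 1.15 CPM (these experiments were normalized separately and not tested). High Vwa3a was thus found in the sgNC libraries and in none of these others.

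Mrap, which encodes an accessory protein of the ACTH receptor, had the same arrangement. Its 3 control tumors held 9.19, 2.72 and 6.43 CPM and T1 to T3 held 0.0810, 0 and 0.160 CPM, a total of 3 counts. Empty-vector tumors reached 0.113 CPM, vehicle tumors 0.226 CPM and untreated cells 0.0624 CPM. 3425401B19Rik was different. T1 to T3 held 6 counts of it in all, at 0.243, 0.239 and 0 CPM, whereas the controls had 5.67, 7.05 and 5.06 CPM and T4 to T7 had 3.46 to 4.47 CPM. The sgUba1 cells also had 0.0282 CPM or less without IFN-γ, against 2.14 and 2.52 CPM in sgNC cells. (Mrap, 3425401B19Rik and the genes of the next paragraph were chosen after their values were seen.)

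**Figure D1:**
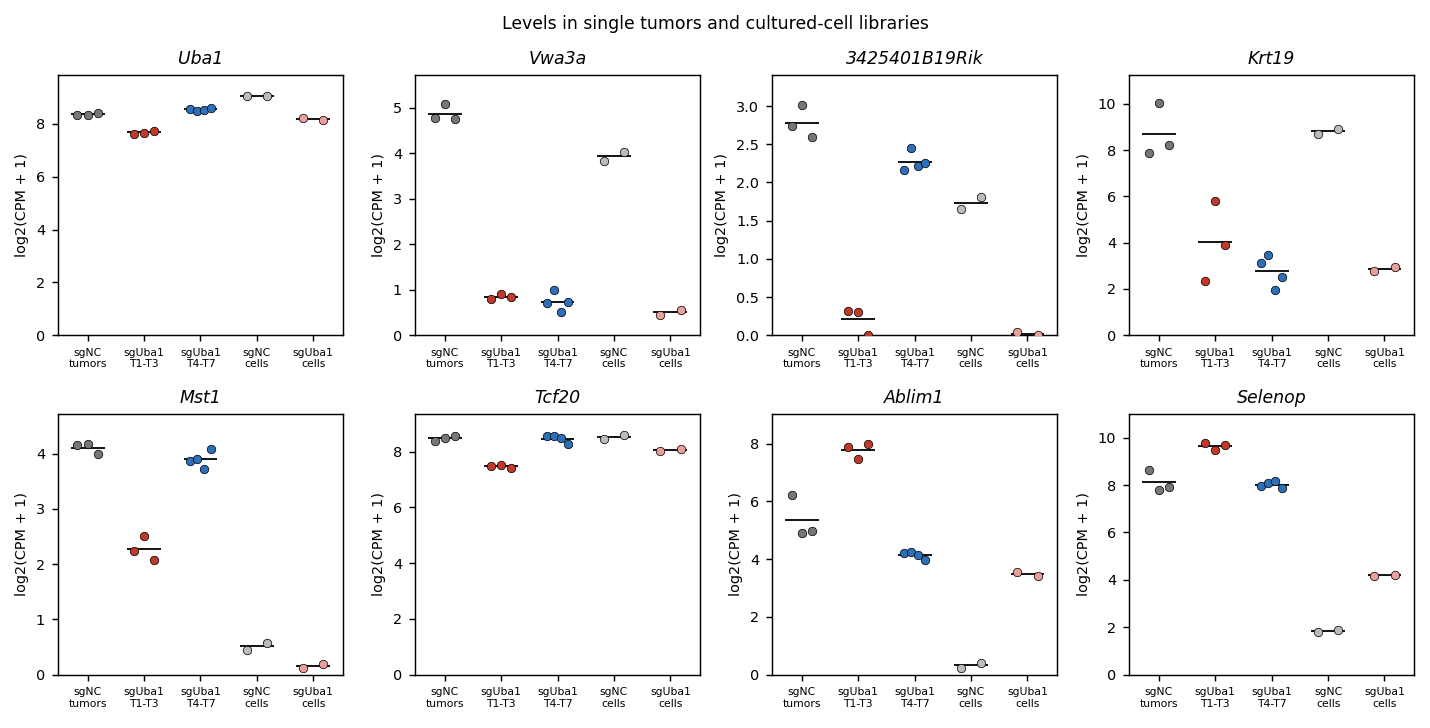
Levels of 8 genes as log2(CPM + 1) (vertical axis) in each sgNC tumor, sgUba1 T1 to T3, sgUba1 T4 to T7, sgNC cells and sgUba1 cells, with a point per library and a bar at the group mean. Tumors and cells were normalized separately. Vwa3a is high only in sgNC libraries, whereas Tcf20, Ablim1 and Selenop set T1 to T3 apart from both other tumor groups.

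Part of the difference between T1 to T3 and the controls was also found in sgUba1 cells in culture, where no host cells are present. Of the 524 genes that fell, 513 could be tested in the cells, and 251 (48.9%) passed the test there in the same direction and 34 (6.63%) in the opposite one. Of the 335 that rose, 256 could be tested, and 150 (58.6%) passed in the same direction and 8 (3.12%) in the opposite one. Uba1 is counted among the lower genes here and was placed there by the rule that chose the tumors. T4 to T7 lay on the same side of the controls for 386 of the 524 lower and 261 of the 335 higher genes. Both groups were set against the same controls, which by itself favors the same side, and sharing was not tested. Among all genes tested in the cells 29.7% were called, 16.2% higher and 13.6% lower in sgUba1. A stricter group of 226 genes (154 lower, Uba1 included, and 72 higher) was called with all 10 tumors, overlapped neither the controls nor T4 to T7, and was called in the same direction in the cells both with and without IFN-γ. The sgNC and sgUba1 cells may stem from the same sublines as the tumors, which the labels do not say, so guide and subline cannot be told apart.

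Selenop, which encodes the plasma selenium carrier selenoprotein P, was among the higher genes, at 888, 724 and 833 CPM in T1 to T3 against 401, 222 and 241 CPM in the controls. T4 to T7 had 232 to 288 CPM, so the 3 tumors did not overlap either group (log2 fold change 1.495, adjusted p = 0.00876), and the cells differed by 2.72 on the log2 scale. Ablim1, an actin-binding LIM protein gene on chromosome 19, stood at 238, 176 and 252 CPM against 72.9, 28.7 and 30.2 CPM (log2 fold change 2.33, adjusted p = 0.00878). It stood at 14.6 to 18.03 CPM in T4 to T7, below all controls. Rassf4, of the Ras association domain family, stood at 59.7, 42.4 and 75.2 CPM against 20.4, 12.5 and 14.2 CPM (log2 fold change 1.90, adjusted p = 0.006). Its difference in the cells, 1.98 on the log2 scale, was of like size. Col12a1, a collagen that coats fibrils, stood at 1045, 636 and 983 CPM against 313, 294 and 130 CPM (log2 fold change 1.85, adjusted p = 0.0205), with a log2 fold change of 2.37 in the cells. Il18, a cytokine gene, rose from between 0.604 and 1.20 CPM to between 1.99 and 3.57 CPM (adjusted p = 0.0242).

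Others were not particular to tumors with low Uba1 RNA. Arhgap44, which encodes a GTPase activator, had 2 counts over the 3 controls and 3.32, 5.41 and 1.84 CPM in T1 to T3, but 7.23 to 8.53 CPM in T4 to T7. Chn1, which encodes the Rac regulator chimaerin 1, stood at 8.02, 7.71 and 7.52 CPM against 1.98, 1.71 and 2.41 CPM, with 3.80 to 6.36 CPM in T4 to T7 (log2 fold change 1.91, adjusted p = 0.006). Ppfibp2, a liprin gene, stood at 4.13, 6.60 and 2.32 CPM against 0.258 to 0.906 CPM in the controls, and its T4 to T7 range of 0.992 to 2.53 CPM overlapped that of T1 to T3.

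Among the lower genes, Tcf20, a transcriptional coregulator on chromosome 15, stood at 179, 184 and 170.0 CPM against 331, 362 and 381 CPM (log2 fold change -1.01, adjusted p = 0.00367). T4 to T7 had 305 to 380 CPM and overlapped the controls, not T1 to T3. Cbx7, a Polycomb protein gene also on chromosome 15, stood at 17.1, 17.1 and 17.4 CPM against 32.6, 57.1 and 45.3 CPM (log2 fold change -1.39, adjusted p = 0.00803). In the cells it was lower by a log2 fold change of -0.84. Bcl2l1, which encodes the survival protein BCL-XL, stood at 43.9, 46.4 and 51.2 CPM against 85.4, 79.8 and 90.4 CPM (log2 fold change -0.86, adjusted p = 0.00367), and its log2 fold change in the cells was -0.54. Mst1, which encodes macrophage stimulating protein, stood at 3.73, 4.69 and 3.20 CPM against 16.9, 17.02 and 14.9 CPM (log2 fold change -2.07, adjusted p = 0.00142). It was near 0 in culture, at 0.490 CPM or less.

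**Figure D2:**
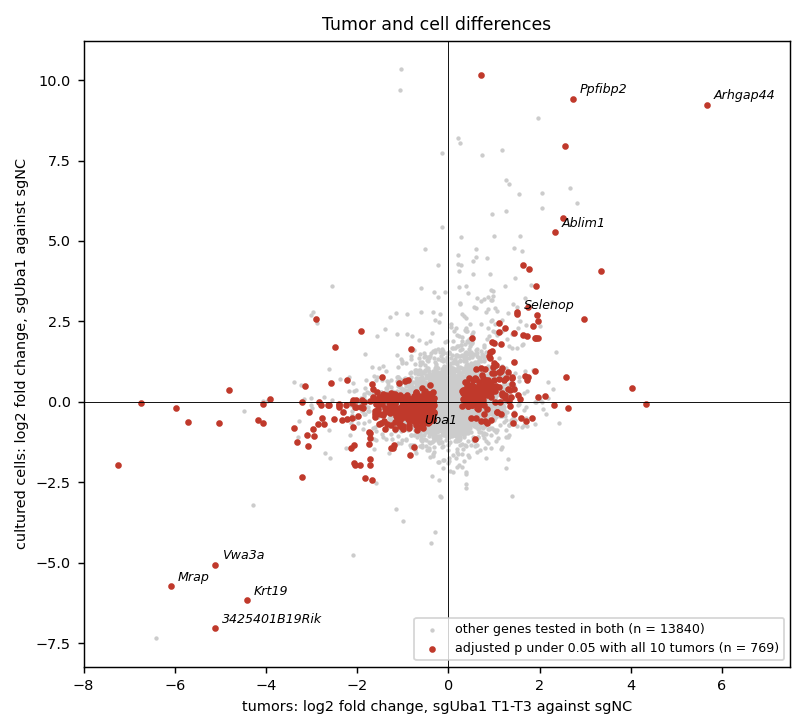
Each point is a gene, with its log2 fold change of sgUba1 T1 to T3 against sgNC tumors from the 10-tumor model (horizontal axis) and of sgUba1 against sgNC cells without IFN-γ (vertical axis), and red marks genes with an adjusted p under 0.05 in the tumors. Red points lie mostly in the lower left and upper right, 251 and 150 of them called the same way in the cells. For Mrap, 3425401B19Rik, Arhgap44 and Ppfibp2 a group near 0 counts makes the plotted position depend on the prior count of 2.

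Many of the genes that differed lay close together on a few chromosomes. The borders given here were set after values in bins of 10 Mb had been seen, and genes with a mean log2 CPM of at least 2 were used, so these are descriptions without a test. Over all 12084 such genes the median log2 fold change was -0.01, with 4.06% fallen and 2.40% risen in the 10-tumor model. On chromosome 15 between 70 and 90 Mb, 213 genes had a median of -0.36, and 77.5% of them were below 0. There 57 genes fell and 1 rose. The medians in T1, T2 and T3 were -0.38, -0.32 and -0.32, while T4 to T7 were above the controls. The cultured cells had a median of -0.37 over the same stretch, and -0.53 with IFN-γ. On either side of it, from 0 to 70 Mb and from 90 to 110 Mb, the tumor medians were -0.03 and -0.02.

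Chromosome 19 was lower over its whole length, with a median of -0.43 over 428 genes, 82.7% of them below 0 and 116 fallen against 8 risen. The medians of T1, T2 and T3 were -0.45, -0.40 and -0.38, and the controls themselves ranged from -0.18 in T1 to 0.23 in T2. Without control T2 the median was -0.33. The median in the cells was 0.00, or -0.10 with IFN-γ. Chromosome 5 divided into 2 parts. Its first 60 Mb had a median of 0.17 over 204 genes (0.29 in the cells), and the rest a median of -0.22 over 559 genes (-0.28 in the cells). Chromosome 12 had a median of 0.18 over 443 genes (0.23 in the cells), and 178 of them were above all controls in each of T1 to T3, against 14.3% of all 12084 genes. Of the 154 lower genes of the stricter group, 52 (33.8%) lay in the chromosome 15 stretch, 35 (22.7%) in the far part of chromosome 5 and 21 (13.6%) on chromosome 19. Of the 72 higher ones, 22 (30.6%) were on chromosome 12. For comparison, 213, 559, 428 and 443 of the 12084 genes lay in these 4 places, in the same order. The borders were set on these same tumors, and the stricter group required a difference from T4 to T7, so these shares are descriptions. Copy number was not measured, and its part in these values was not tested.

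**Figure D3:**
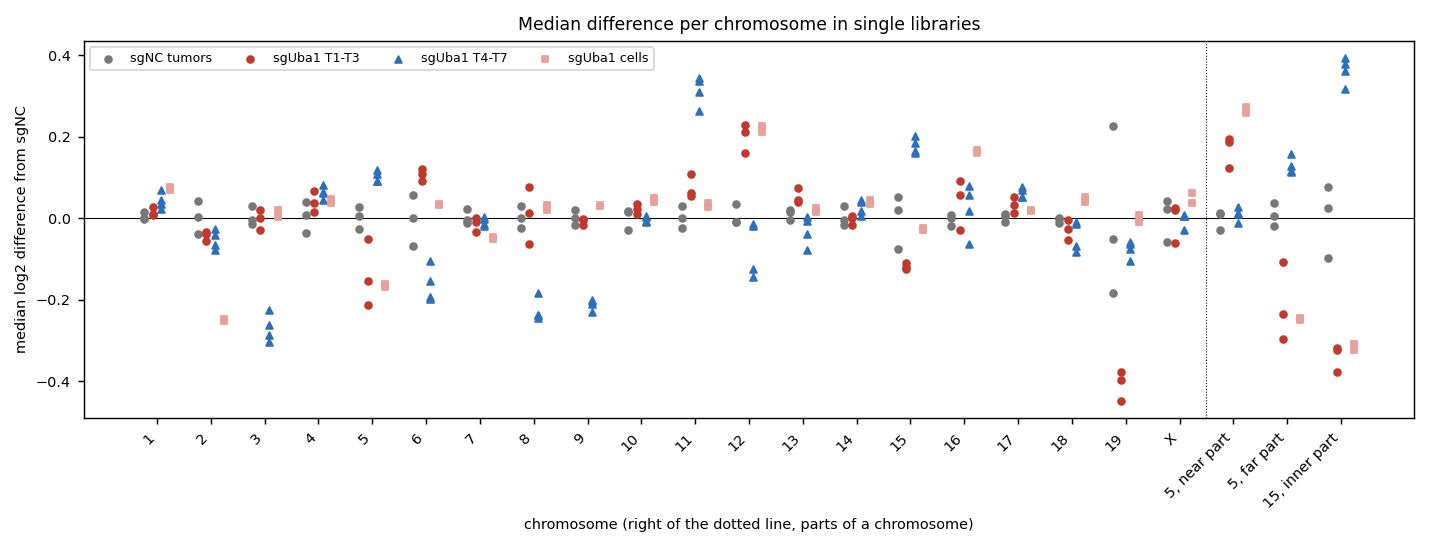
Median log2 difference from the sgNC mean over the genes of each chromosome (vertical axis), with a point per library for sgNC tumors, sgUba1 T1 to T3, sgUba1 T4 to T7 (triangles) and sgUba1 cells (squares), and cells are set against sgNC cells. Right of the dotted line are the first 60 Mb of chromosome 5, the rest of it, and chromosome 15 from 70 to 90 Mb. T1 to T3 lie low on chromosome 19, where the cells lie near 0, and low in the chromosome 15 stretch, where the cells lie low as well.

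The other genes of ubiquitin activation differed little. Leaving aside Uba1, by which the tumors were chosen, 9 genes for ubiquitin and ubiquitin-like E1 enzymes were tested, and 0 of them passed by edgeR in either fit. At an unadjusted p under 0.05 in the 6 tumors, 1 was higher (background 8.5%) and 1 lower (background 10.4%). Uba6, the other E1 that can activate ubiquitin, stood at 57.5, 54.5 and 49.7 CPM in T1 to T3 against 67.5, 55.6 and 72.3 CPM, and the groups overlapped (log2 fold change -0.28, adjusted p = 0.151). Uba3, which encodes the catalytic subunit of the NEDD8 E1, stood at 63.9, 77.2 and 61.4 CPM against 85.2, 92.3 and 83.7 CPM (log2 fold change -0.37, adjusted p = 0.0553). Its groups did not overlap. Ubb, a polyubiquitin gene, stood at 539, 525 and 533 CPM against 467, 414 and 416 CPM (log2 fold change 0.29, adjusted p = 0.0611). Of 28 E2 genes tested, 1 rose (background 2.07%) and 0 fell (background 3.23%). That gene was Ube2e1, at 37.5, 37.6 and 34.0 CPM against 29.0, 25.2 and 26.1 CPM (log2 fold change 0.44, adjusted p = 0.0452), and it was higher in the cells as well (log2 fold change 0.72). Ube2b, which encodes an E2 with a role in DNA damage tolerance, stood at 64.3, 52.8 and 66.9 CPM against 83.3, 79.4 and 79.7 CPM (log2 fold change -0.40, adjusted p = 0.0513). Stub1, which encodes an E3 ligase that works with chaperones, stood at 80.3, 71.2 and 74.4 CPM against 74.1, 68.9 and 75.0 CPM.

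The proteasome genes were shifted upward as a list, by a small amount, and not only in the tumors with low Uba1 RNA. The summed level of the list was 3950 to 4092 CPM in T1 to T3, 3868 to 4284 CPM in T4 to T7 and 3066 to 3603 CPM in the controls. Of 32 tested, 30 had a log2 fold change above 0 and 22 were higher in T1 to T3 without overlap, where the share among all genes was 13.5%. The median log2 fold change was 0.25, against 0.01 over all 15679 genes, and 0.18 without control T2. Passing genes by edgeR numbered 0 in the 6 tumors and 3 with 10 tumors, all higher (background 2.07%). In the 6 tumors 16 were higher at an unadjusted p under 0.05 (background 8.5%). Psmc2, an ATPase subunit of the regulatory particle, stood at 149, 144 and 141 CPM against 108, 104 and 107 CPM (log2 fold change 0.44, adjusted p = 0.0155). Psmc1, a second ATPase subunit, stood at 138, 145 and 151 CPM against 100, 97.1 and 115 CPM (log2 fold change 0.47, adjusted p = 0.0343). Psma3, a subunit of the core ring, stood at 242, 208 and 238 CPM against 171, 155 and 178 CPM (log2 fold change 0.44, adjusted p = 0.0336). All 3 lie where genes in general were higher, Psmc1 and Psma3 on chromosome 12 and Psmc2 in the first 60 Mb of chromosome 5. In the cells 4 of the 32 genes were higher (background 16.2%) and 5 lower (background 13.6%).

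Genes of the interferon pathway differed among T1, T2 and T3 themselves. In the summed GTPases and several genes named here, T3 was highest, T1 was intermediate, and T2 was near the controls. Gbp2, an interferon-induced GTPase, stood at 25.4, 5.33 and 58.2 CPM against 9.96, 4.83 and 4.66 CPM (log2 fold change 2.18, adjusted p = 0.084). The groups overlapped, through T2.

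As a list, 14 interferon-induced GTPases had a median log2 fold change of 1.58, or 0.85 without T3, and all 14 had a value above 0. Yet 1 of them was higher without overlap (background 13.5%), and the summed level was 257, 95.5 and 490.3 CPM in T1, T2 and T3 against 73.3 to 133 CPM in the controls. The gene without overlap was Gvin1, at 48.2, 27.0 and 56.2 CPM against 22.8, 20.5 and 13.1 CPM, which rose (log2 fold change 1.22, adjusted p = 0.0336). It was the 1 of the 14 that rose (background 2.07%). Of 43 antiviral interferon-stimulated genes, 38 were above 0, 6 were higher without overlap, a share near that of all genes (13.5%), and the median was 0.34, or 0.17 without T3 and 0.22 without control T3. Of the 43, 1 rose, a share near that of all genes (2.07%). It was Dhx58, a regulator of RNA sensing, at 5.84, 5.64 and 7.28 CPM against 3.86, 2.22 and 2.49 CPM (log2 fold change 1.12, adjusted p = 0.0331). These lists were not higher in T1 to T3 than in T4 to T7 throughout, since 17 of the 43 antiviral genes were lower in T1 to T3 at an adjusted p under 0.05 and 0 higher (15.7% lower and 15% higher among all genes). Usp18, which restrains type I interferon signaling, stood at 10.1, 8.75 and 9.52 CPM in T1 to T3, above controls at 3.73 to 7.56 CPM and below T4 to T7 at 16.8 to 26.6 CPM.

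Of the signaling genes, Jak1 stood at 124, 123 and 140 CPM against 121, 158 and 120 CPM and overlapped (log2 fold change -0.05, adjusted p = 0.85). Irf1 overlapped too, at 53.7, 30.4 and 89.5 CPM against 41.8, 80.4 and 45.3 CPM (log2 fold change 0.05, adjusted p = 0.947). Jak2, which lies on chromosome 19, fell, at 76.8, 68.7 and 74.6 CPM against 98.0, 128 and 101 CPM (log2 fold change -0.58, adjusted p = 0.0249). In the cells it was higher in sgUba1, at 164 and 167 CPM against 118 and 126 CPM (log2 fold change 0.44, adjusted p = 7.88e-05). With IFN-γ, all 9 GTPases and 19 of 29 antiviral genes that could be tested in the cells were higher in sgUba1, where 17% of all genes were higher (39.4% called in either direction).

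The antigen presentation genes named here followed the same order of tumors. Psmb9, an immunoproteasome subunit, stood at 5.35, 2.23 and 16.2 CPM against 2.15, 1.71 and 1.85 CPM, without overlap (log2 fold change 2.05, adjusted p = 0.0666). Nlrc5, the transactivator of MHC class I genes, stood at 26.5, 8.43 and 56.5 CPM against 8.76, 3.42 and 9.24 CPM and overlapped (adjusted p = 0.0603). Of 23 MHC class I presentation genes listed, 15 were tested. Among these, 13 were above 0, 2 were higher without overlap (background 13.5%) and 0 passed by edgeR in either fit. In the 6 tumors 3 were higher at an unadjusted p under 0.05 (background 8.5%). The classical genes H2-K1 and H2-D1 were not analysed here. Of the 10 genes listed for MHC class II presentation, only 3 were analysed here. All 3 were above 0 and higher without overlap (background 13.5%), and 2 rose (background 2.07%). Their summed level was 148 to 462 CPM in T1 to T3, 131 to 224 CPM in T4 to T7 and 63.2 to 120 CPM in the controls. Ctss, a lysosomal protease that processes the invariant chain, stood at 109, 73.9 and 131 CPM against 54.9, 43.8 and 31.1 CPM (log2 fold change 1.27, adjusted p = 0.0275). Ciita, the class II transactivator, stood at 6.89, 3.10 and 14.6 CPM against 2.92, 2.62 and 2.25 CPM (log2 fold change 1.65, adjusted p = 0.0621).

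Of 17 chemokine and checkpoint genes tested, 12 were above 0, 3 were higher without overlap (background 13.5%) and 2 rose (background 2.07%). Their median log2 fold change was 0.37, or 0.01 without T3, 0.10 without control T1 and 0.64 without control T2. Cxcl9, which attracts T cells, stood at 13.5, 1.75 and 25.2 CPM against 6.36, 2.62 and 3.46 CPM (log2 fold change 1.69, adjusted p = 0.179). Cxcl10, its relative, stood at 3.24, 0.477 and 4.08 CPM against 1.12, 0.806 and 1.21 CPM (log2 fold change 1.29, adjusted p = 0.217). For both, T2 was the lowest of the 6 tumors. Ccl2, which attracts monocytes, was higher without overlap and rose, at 5.75, 3.18 and 11.7 CPM against 1.80, 1.41 and 1.45 CPM (log2 fold change 2.13, adjusted p = 0.0313). Cd274, which encodes PD-L1, stood at 10.7, 8.03 and 19.9 CPM against 7.21, 5.04 and 4.58 CPM, without overlap (log2 fold change 1.19, adjusted p = 0.0504). Ido1, a tryptophan-degrading enzyme, stood at 9.56, 4.21 and 26.2 CPM against 24.9, 173 and 44.9 CPM and overlapped, and T4 to T7 had 0.376 to 1.076 CPM.

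**Figure D4:**
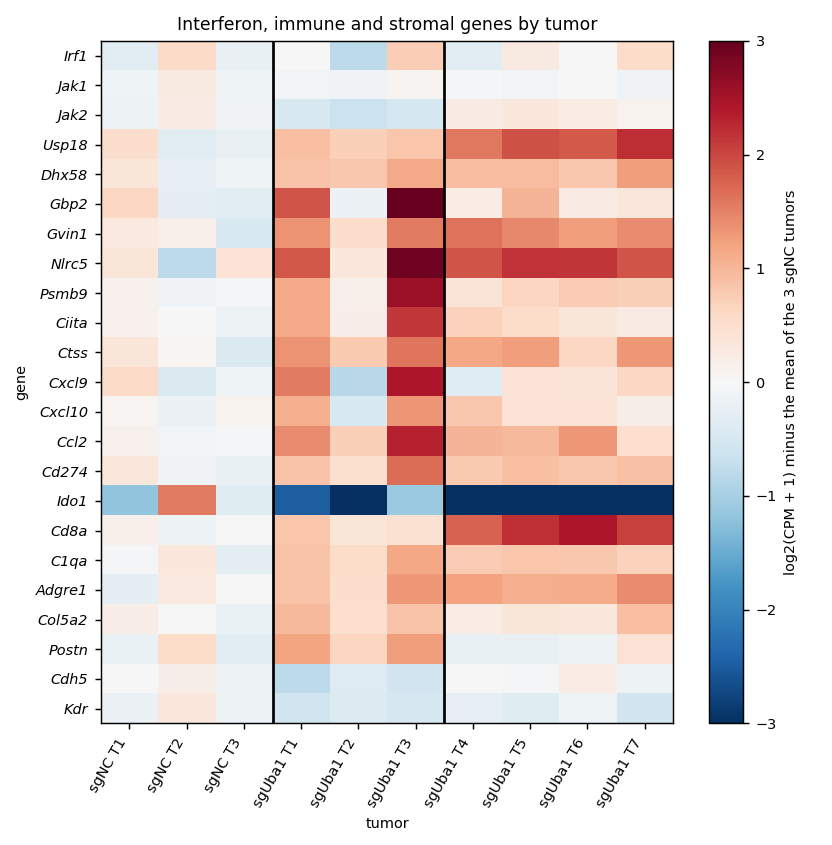
Each cell is the log2(CPM + 1) of a gene (rows) in a tumor (columns) minus the mean of the 3 sgNC tumors, red for higher and blue for lower, with colors limited to ±3, and black lines separate sgNC, sgUba1 T1 to T3 and sgUba1 T4 to T7. The rows of Gbp2, Nlrc5, Psmb9 and Ciita are red in T1 and T3 and pale in T2, where Gbp2 stood at 5.33 CPM against 58.2 CPM in T3, and Cd8a is darkest in T4 to T7.

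Most T and NK cell genes were too low to test. Of 26 T and NK cell markers in the table, 8 could be tested. Without overlap, 2 were higher (background 13.5%) and 1 lower (background 13.6%), and 0 passed by edgeR in either fit. In the 6 tumors 1 was higher at an unadjusted p under 0.05 (background 8.5%). Cd8a, of the CD8 coreceptor, stood at 6.16, 4.21 and 4.48 CPM in T1 to T3 against 3.44, 2.62 and 3.06 CPM (log2 fold change 0.70, adjusted p = 0.101), and at 12.7 to 20.7 CPM in T4 to T7. All 3 groups were thus separate for Cd8a. Its partner Cd8b1 did not follow, at 0.810, 0.716 and 0.640 CPM against 1.12, 1.11 and 0.482 CPM. Cd3d, of the T cell receptor complex, stood at 7.13, 6.84 and 8.48 CPM against 5.24, 6.44 and 5.71 CPM (adjusted p = 0.236). Gzmb did not exceed 0.960 CPM in T1 to T3 and Ifng had 0 counts there, and neither could be tested. The summed level of the T and NK list was 24.2 to 45.9 CPM in T1 to T3 and 21.4 to 27.1 CPM in the controls. In bulk tissue, fewer cells of a type and less RNA per cell cannot be told apart.

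Several macrophage genes rose. Of 21 markers, 18 were above 0 and 9 were higher without overlap (background 13.5%). With 10 tumors 4 rose (C1qa, Adgre1, Cd68 and Ms4a7, background 2.07%) and 0 fell (background 3.23%). At an unadjusted p under 0.05 in the 6 tumors, 10 were higher (background 8.5%) and 1 lower (background 10.4%). The median log2 fold change was 0.58, or 0.89 without control T2 and 0.39 without T3. C1qa, a complement component made by macrophages, stood at 69.0, 55.9 and 86.1 CPM against 36.7, 47.2 and 31.0 CPM (log2 fold change 0.87, adjusted p = 0.0253). Adgre1, which encodes F4/80, stood at 20.2, 15.9 and 27.8 CPM against 8.59, 13.3 and 10.7 CPM (log2 fold change 0.97, adjusted p = 0.0354). T4 to T7 overlapped T1 to T3 for both, with Adgre1 at 23.98 to 30.04 CPM. The summed level of the list overlapped between groups, at 876 to 1265 CPM in T1 to T3 and 586 to 1263 CPM in the controls, whose highest value was control T2. Of 14 neutrophil markers 6 could be tested and 0 passed. Of 8 dendritic cell markers 4 could be tested in the 6 tumors and 1 (Itgax) rose with 10 tumors (background 2.07%). Of the 7 B and plasma cell markers 0 reached the level needed for a test.

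Stromal genes moved in 2 directions. Of 20 fibroblast and collagen genes, 18 were above 0, 8 were higher without overlap (background 13.5%), 1 rose (background 2.07%), and the median was 0.78. That gene was Col5a2, at 194, 140 and 178 CPM against 112, 99.1 and 84.4 CPM (log2 fold change 0.79, adjusted p = 0.0437). Postn, a matrix protein of activated fibroblasts, stood at 218, 150.2 and 228 CPM against 82.9, 139 and 74.7 CPM, without overlap (log2 fold change 1.01, adjusted p = 0.0546). Tnc, which encodes the matrix protein tenascin C, rose, at 240, 175 and 177 CPM against 75.7, 64.9 and 51.2 CPM (log2 fold change 1.62, adjusted p = 0.00803), and was at 0.0282 CPM or less in cultured cells. The imprinted RNA H19 rose too, at 370, 178 and 128 CPM against 41.0, 6.85 and 30.0 CPM (log2 fold change 3.11, adjusted p = 0.0433), and T4 to T7 had 3.06 to 23.5 CPM (Tnc and H19 were chosen after their values were seen).

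Endothelial genes went the other way, with 12 of 14 below 0, 6 lower without overlap (background 13.6%) and a median log2 fold change of -0.45, or -0.29 without control T2. Cdh5, the cadherin of vessel junctions, was the 1 that fell (background 3.23%), at 26.2, 34.8 and 30.5 CPM against 45.9, 51.8 and 41.0 CPM (log2 fold change -0.61, adjusted p = 0.0385). Kdr, the main receptor for VEGF, stood at 19.8, 22.5 and 21.2 CPM against 27.0, 38.6 and 27.2 CPM (log2 fold change -0.55, adjusted p = 0.0754). Skeletal muscle genes differed by tumor. Ttn, the giant sarcomere protein, stood at 139 and 66.2 CPM in T1 and T2 but at 3.12 CPM in T3, within the control range of 1.29 to 4.29 CPM. The summed muscle markers were 330.0, 114 and 69.6 CPM in T1, T2 and T3 and 39.1 to 59.3 CPM in the controls, and their part in the other results was not tested.

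**Figure D5:**
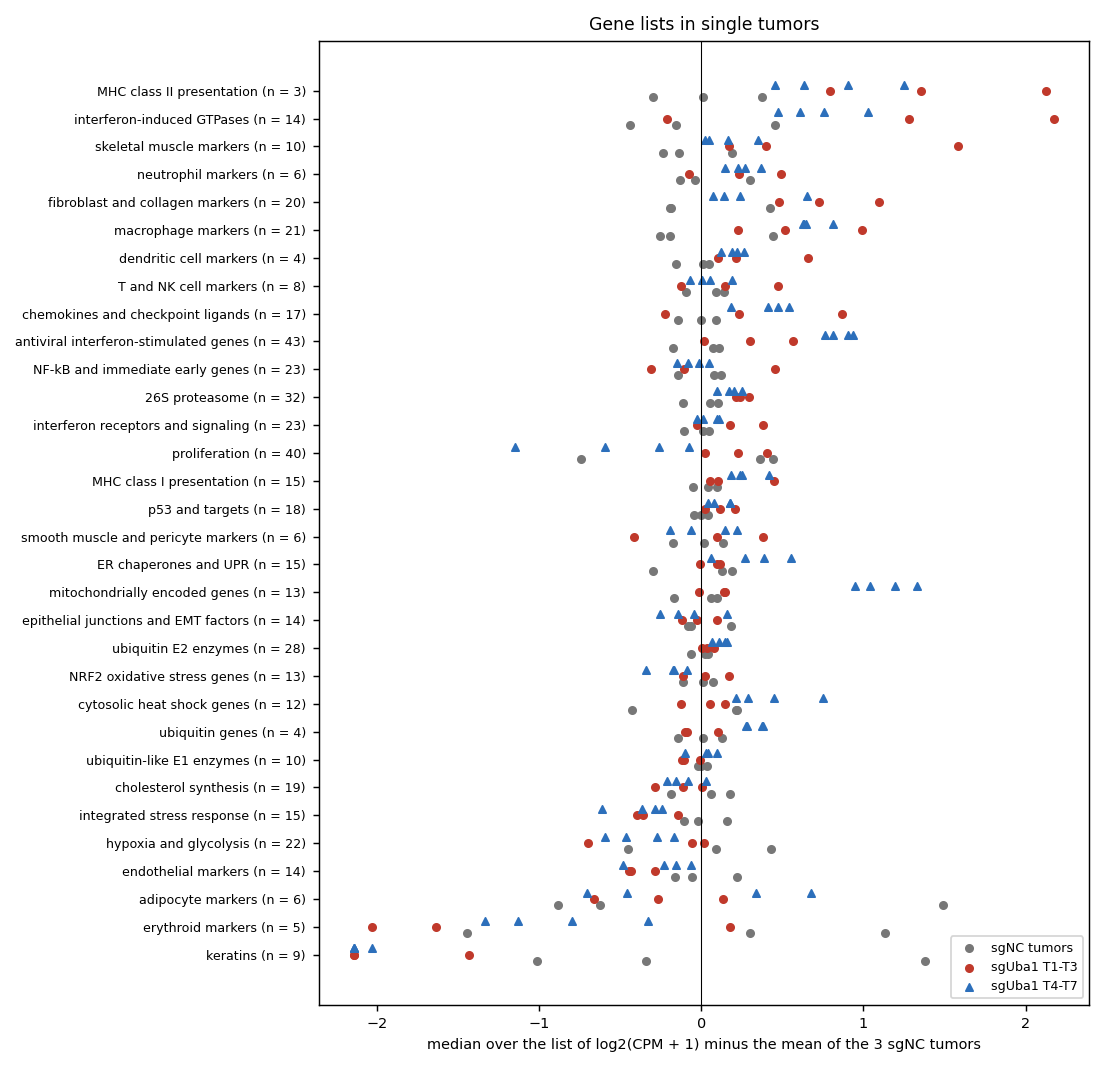
For 32 of the 33 gene lists with at least 3 genes tested (rows, n in brackets), the median over its genes of log2(CPM + 1) minus the mean of the 3 sgNC tumors (horizontal axis), with a point per tumor and triangles for sgUba1 T4 to T7. Interferon-induced GTPases run from T2 at -0.21 to T3 at 2.18, and the integrated stress response lies below 0 in each of T1 to T3 and of T4 to T7.

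Keratins were lower in T1 to T3, to a degree that depended on control T2. Of 9 keratin genes tested, 5 were lower without overlap (background 13.6%) and 3 fell (background 3.23%). The median log2 fold change was -4.06, or -2.97 without control T2. The list was low in T4 to T7 as well, with a summed level of 562 to 793 CPM. It was 426 to 742 CPM in T1 to T3 and 1126 to 4277 CPM in the controls. Krt19, a keratin of simple epithelia, stood at 4.05, 55.5 and 13.9 CPM against 234, 1047 and 300.3 CPM (log2 fold change -4.43, adjusted p = 0.0281), and T4 to T7 had 2.87 to 10.1 CPM. It was also lower in the sgUba1 cells, at 5.78 and 6.68 CPM against 416 and 482 CPM (log2 fold change -6.17, adjusted p = 1.97e-11). Krt4 and Krt78, keratin genes of chromosome 15 outside the low stretch, fell in the tumors. Krt4 stood at 5.67, 18.7 and 15.8 CPM against 114, 819 and 190 CPM (log2 fold change -4.80, adjusted p = 0.0132). Yet sgUba1 cells had more Krt4 than sgNC cells, at 1030 and 1034 CPM against 771 and 823 CPM, while Krt78 was lower in them (log2 fold change -0.67). Krt15, a keratin of basal cells, stood at 12.1, 29.4 and 78.1 CPM against 188, 1299 and 505 CPM (log2 fold change -4.06, adjusted p = 0.0519). In the cells it stood at 796 and 784 CPM against 764 and 790 CPM. Of the junction and transition factors, 2 of 14 fell (background 3.23%), Grhl2 and the tight junction gene Tjp1. Grhl2, an activator of epithelial genes on chromosome 15 but outside its low stretch, stood at 44.1, 63.4 and 36.2 CPM against 103, 107 and 96.8 CPM (log2 fold change -1.10, adjusted p = 0.0228), and fell in the cells as well (log2 fold change -0.67).

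The integrated stress response, by which cells meet amino acid shortage and unfolded proteins through the factor ATF4, was lower. Of 15 genes, 12 had a log2 fold change below 0, and 6 were lower without overlap (background 13.6%). In all, 5 fell (background 3.23%), namely Atf4, Slc7a11, Psat1, Trib3 and Chac1, and 0 rose. The median was -0.23, or -0.43 without control T3. The list was low in T4 to T7 too, with a summed level of 1382 to 1523 CPM. It was 1478 to 1865 CPM in T1 to T3 and 2035 to 2309 CPM in the controls. Atf4, which lies within the low stretch of chromosome 15, stood at 74.1, 91.1 and 84.1 CPM against 152, 144 and 130.2 CPM (log2 fold change -0.78, adjusted p = 0.00934). T4 to T7 had 131 to 156 CPM, in the control range or above it. Slc7a11, the cystine transporter, stood at 98.5, 131 and 109 CPM against 204, 304 and 280 CPM (log2 fold change -1.22, adjusted p = 0.0118). Psat1, an enzyme of serine synthesis on chromosome 19, stood at 99.0, 111 and 115 CPM against 184, 228 and 204 CPM (log2 fold change -0.93, adjusted p = 0.0139). Trib3, a pseudokinase induced by stress, stood at 1.78, 4.14 and 2.80 CPM against 8.33, 21.95 and 6.83 CPM (log2 fold change -2.08, adjusted p = 0.0357). For Slc7a11, Psat1 and Trib3 the range of T4 to T7 overlapped that of T1 to T3. In the cells 10 of the 15 genes were lower in sgUba1, or 12 with IFN-γ, and 0 higher (13.6% and 22.4% of all genes lower). Slc7a11 stood there at 45.3 and 44.9 CPM against 125 and 117 CPM (log2 fold change -1.42).

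Other stress and metabolic lists held few calls. Hsf1, the heat shock factor, stood at 32.7, 29.7 and 33.8 CPM against 43.3, 40.8 and 48.4 CPM and fell (log2 fold change -0.47, adjusted p = 0.0336), yet the 12 heat shock genes had a median of 0.00. Srebf2, the master factor of cholesterol synthesis, fell from 103, 110 and 139 CPM to 64.8, 73.4 and 74.7 CPM (log2 fold change -0.73, adjusted p = 0.0163). Both genes are on chromosome 15, where 14.5% of the 469 genes with a mean log2 CPM of at least 2 fell (background 4.06%). Insig1, which restrains that factor, rose, at 46.7, 35.4 and 49.7 CPM against 21.6, 23.7 and 29.5 CPM (log2 fold change 0.81, adjusted p = 0.0439), and of 19 cholesterol genes 7 were above 0. Gclm, of glutathione synthesis, rose, at 119, 101 and 115 CPM against 90.2, 66.5 and 75.6 CPM (log2 fold change 0.52, adjusted p = 0.0485), and of 13 oxidative stress genes 7 were above 0. Fos, an immediate early gene, stood at 38.2, 82.5 and 384 CPM against 30.7, 31.4 and 35.6 CPM (log2 fold change 2.36, adjusted p = 0.0756). No gene passed with either 6 or 10 tumors among the 22 hypoxia, 40 proliferation, 18 p53, 15 endoplasmic reticulum chaperone, 23 NF-kB and 13 mitochondrially encoded genes, whose medians lay between -0.23 and 0.31. The highest, of the NF-kB genes, was -0.25 without T3. At an unadjusted p under 0.05 in the 6 tumors these lists held 3, 1, 2, 2, 4 and 1 genes, in each list a smaller share than among all genes (18.9%).

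Psca, a prostate surface antigen, stood at 66.4, 140 and 31.3 CPM against 183, 231 and 100.2 CPM and overlapped (adjusted p = 0.171). Myc stood at 1233, 1433 and 1212 CPM against 1546, 398 and 1415 CPM (log2 fold change 0.20, adjusted p = 0.786).

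The tumors that carried the same label but kept their Uba1 RNA were further from T1 to T3 than control T1 and T3 were. Correlations with T4 to T7 were 0.946 to 0.960, against 0.971 to 0.985 with control T1 and T3 and 0.943 to 0.948 with control T2. Of 16202 genes, 4968 passed between T1 to T3 and T4 to T7 (30.7%), 2428 higher (15%) and 2540 lower (15.7%) in T1 to T3. On log2(TPM + 1) values the split was 4169 higher and 1335 lower. The mitochondrially encoded genes, which make up part of this scaling, summed to 18560 to 20770 CPM in T1 to T3 and 36170 to 45830 CPM in T4 to T7. Npnt, which encodes an integrin ligand of basement membranes, stood at 65.3, 30.2 and 69.2 CPM in T1 to T3, 51.5 to 59.5 CPM in the controls and 0.469 to 0.744 CPM in T4 to T7. Pigr, the receptor that carries polymeric antibodies across epithelia, stood at 0.729, 0.318 and 0.640 CPM in T1 to T3, 0.403 to 0.482 CPM in the controls and 20.6 to 23.2 CPM in T4 to T7. Trp53inp2, an autophagy gene, stood at 22.4, 28.2 and 21.4 CPM in T1 to T3, 38.2 to 70.9 CPM in the controls and 126 to 154 CPM in T4 to T7. For these last genes, chosen after their values were seen, T4 to T7 overlapped neither other group.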

How the data were processed

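RNA-seq libraries of Myc-CaP tumors and cells were analysed from 2 deposited tables of 40077 genes and 51 samples. The authors gave expected counts (estimated counts, not whole) in one and TPM values in the other, both from kallisto (version not given in the sources used here) on mm10, per the submitters' processing notes. The labels state poly-A selection and the paper's methods ribosomal RNA removal. Estimated counts were rounded to whole numbers, and 0 per-sample columns were left out for want of a sample. Isoforms, paralogs and overlapping genes share reads that the authors' estimation divided between them.

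Tests used edgeR 4.0.16 in R 4.3.3 (TMM factors, filterByExpr, glmQLFit and glmQLFTest, prior count 2, Benjamini-Hochberg adjusted p under 0.05, two-sided). The main fit held sgUba1 T1 to T3 and sgNC T1 to T3, and a second fit all 10 tumors. DESeq2 1.42.0, limma 3.58.1 (voom, and log2(TPM + 1) or log2(TPM + 0.1)), other filters, a replicate block and leaving out each tumor were alternatives. Printed tumor CPM came from TMM factors over the 10 tumors, and those of the cells from 8 libraries. With 3 against 3 tumors an exact permutation test cannot go below 0.10, so none was used. Statistics were tested on simulated data. Replicates were compared in 12 pairs (chi-square per degree of freedom 9.71 to 83.8), and 0 pairs were identical.

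Named genes were the 15 largest changes each way past the threshold (groups apart, average log2 CPM 1 or more), a set of interferon, T cell and lineage genes (some are not reported here), and up to 4 genes with the lowest p in each of 35 lists. Genes named beyond that were chosen after their values were seen. The tumors and lists were chosen with earlier results of these data known. Gene positions came from GRCm38 (GENCODE M21), which placed 39867 of the 40077 genes. Tumor depth ran from 10668594 to 14168230 counts and that of the cells from 26768450 to 38032284, so that genes under about 1 CPM rest on few counts.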

Additional observations from a re-analysis of the deposited data

Results flagged for a closer look

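A tumor far from the other 3 of sgUba1 T4 to T7 was found for 4 of the genes named above. Gbp2 stood at 13.4 CPM in T5, Col5a2 at 183.1 CPM in T7, Postn at 129.5 CPM in T7, and Ttn at 8.287 CPM in T4. Some such values arise by chance, at about the rate of the 95% level of the test used, and groups of 3 were too small for it.

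T1 to T3 and T4 to T7, which carry the same label, differed at an adjusted p under 0.05 (edgeR, 10 tumors) for 4968 genes. Uba1 RNA chose the groups, so no test is given for that gene. The log2 fold changes of T1 to T3 against T4 to T7 follow for the named genes that passed. In the ubiquitin and proteasome lists, Psmc2 had 0.28, Psmc1 0.41, Psma3 0.46, Uba3 0.56 and Ube2b -0.55. Among immune genes, Cd8a had -1.75, Cd3d 0.60, Usp18 -1.16, Jak2 -0.78, Ido1 4.34 and Il18 1.58. Stromal and muscle genes included Postn at 1.07, Tnc at 0.96, Col12a1 at 2.02, Cdh5 at -0.60 and Ttn at 4.10. On chromosome 15, Atf4 had -0.82, Srebf2 -0.66, Hsf1 -0.98, Grhl2 -0.97, Psca -1.89, Tcf20 -0.998, Cbx7 -1.24 and Selenop 1.65. Of the others, Insig1 had 0.71, Gclm 1.05, Mst1 -1.85, Ablim1 3.73, Rassf4 1.69, Arhgap44 -1.19, Ppfibp2 1.43, Bcl2l1 -0.60, H19 4.44, Trp53inp2 -2.56, Npnt 6.52 and Pigr -5.25. 3425401B19Rik did not exceed 0.243 CPM in T1 to T3, so no fold is given.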

How the results depend on the processing

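The count of genes called between T1 to T3 and the controls differed most with the tool, with the number of tumors in the model and with control T2, and the cause was not tested. It was 1 as reported, 2 with limma-voom, 5 with no filter on low counts, 0 with at least 10 counts in every library (2792 genes at an unadjusted p under 0.05), 2 on log2(TPM + 0.1), 992 with DESeq2, 859 with all 10 tumors and 924 with all 10 but without control T2, an alternative chosen after seeing the data. Leaving out a tumor gave 1 to 184 calls, 184 without control T2 and 6 without control T1. The count also called in the same direction in the cells was 1 as reported and 445, 2, 4, 0, 2, 401 and 423 with DESeq2, voom, no filter, 10 counts, log2(TPM + 0.1), 10 tumors and 10 without control T2, and 1 to 116 leaving out a tumor. A replicate block gave 4 calls, 2 of them called in the cells, but the shared numbers do not pair the tumors (correlations 0.17, -0.21 and -0.09, and 1 of 6 tumors correlated best with its own number). With Bonferroni adjustment 330 genes passed against T4 to T7, 511 in the cells and 974 with IFN-γ. In the cells, log2(TPM + 1) gave 2618, log2(TPM + 0.1) 2627, leaving out a library 2932 to 5641, and with IFN-γ log2(TPM + 1) gave 4037.

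TPM moved the median of all genes from 0.01 to 0.11 with a pseudocount of 1 and to 0.13 with 0.1, so list medians are to be read against that shift. The proteasome median was then 0.37 and 0.37, the stress response -0.083 and -0.0878, chromosome 5 before 60 Mb 0.27 and 0.28 and after it -0.0916 and -0.097, the chromosome 15 stretch -0.21 and -0.22, and chromosome 12 0.30 and 0.33. With log2(TPM + 1) the endothelial median was -0.26 and that of keratins -1.93, and with at least 10 counts keratins had -2.41. Leaving out control T2 gave an endothelial median of -0.29, keratins of -2.97 and -0.45 on chromosome 15, the same 3 with 10 tumors being -0.29, -2.97 and -0.45. Leaving out 1 tumor at a time put the endothelial median between -0.57 and -0.29, keratins between -4.50 and -2.97, the stress response between -0.43 and -0.23, the chromosome 15 stretch between -0.45 and -0.32, and chromosome 12 between 0.17 and 0.22. The cause of these shifts was not tested.

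Among 71 named genes no sign changed for one that was called. Reversed signs in genes not called were Jak1 on TPM, 0.14 and 0.14, and with 10 tumors without control T2, 0.0844 (leaving out a tumor, -0.12 to 0.0856), Irf1 with voom, -0.0117, and on TPM, -0.0122 and -0.0149 (-0.41 to 0.40), Myc with 10 tumors without control T2, -0.21 (-0.21 to 0.50), and Rbm10 on TPM, 0.0552 and 0.0564 (-0.14 to 0.00286). Leaving out a tumor also moved Stub1 between -0.00372 and 0.0834, Cdk16 between -0.00616 and 0.0631, and Npnt between -0.25 and 0.24. Genes under about 1 CPM, among them Gzmb and Ifng, are limited by depth.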
